A study of Homo sapiens with 4 samples.

Results

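The 60 genes examined here encode the machinery of mitosis, that is, the kinases, cyclins and transcription factors of mitotic entry, the spindle checkpoint, the kinetochore, the chromosomal passenger complex, the spindle and its motors, the cytokinesis proteins and the condensins. They were chosen by gene symbol, with earlier results of these data known, and all 60 were found among the 19475 symbols of the table. All 60 also passed the filter on low values, which 11964 symbols passed. RNA was sequenced from SKOV3, a line of human ovarian cancer cells in wide use. There were 2 libraries of cells on a tissue culture plate (TCP), labelled day 0, and 2 libraries of tumor spheroids on a plate coated with the polymer thin film polymer X, labelled day 8. No drug, knockdown or transgene was applied to any of the 4 libraries. Nothing in the labels says whether the libraries of a group came from separate cultures, so each p-value measures only the spread between these libraries, which may be technical. In the methods of the study, routine culture used fetal bovine serum, whereas spheroids grew in serum replacement and were dissociated at intervals. A single protocol, with serum replacement, stands in the labels of every library. Substrate, culture time and possibly serum therefore changed together, and their parts cannot be told apart.

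Most of these genes are transcribed in waves. A cell that enters the cycle first raises its DNA replication genes, and then raises its mitotic genes shortly before division. In resting cells the DREAM complex, which joins an RB family protein, an E2F factor and the MuvB core, keeps both groups silent. In dividing cells the transcription factors MYBL2 and FOXM1 bind MuvB and switch the mitotic genes on. FOXM1 is itself produced in that wave. Since a bulk library pools all cells, fewer cells in mitosis and less mRNA in each cell cannot be told apart here.

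Values are FPKM, that is, sequenced tags per kilobase of transcript, scaled to the tags of the library, from libraries of 38404000 to 44913000 tags. The member with the fewest tags in any library still had 111. Differences are log2 fold changes on the scale of log2(FPKM + 1), polymer X minus TCP, from limma. A gene is said to have fallen or risen where the Benjamini-Hochberg adjusted p was under 0.05 and the absolute log2 fold change at least 1. The keratins KRT8 and KRT18 and the receptor ERBB2, for which SKOV3 is known, were detected at 89.3 FPKM or more in every library. Of the other epithelial markers, KRT7 was at 7.57 to 8.33 FPKM on TCP and 4.04 to 4.57 FPKM on polymer X, and EPCAM and KRT19 lay at 1.39 FPKM or less. ERBB2 rose 4.39-fold and EPCAM rose from 0.136 to 1.36 FPKM in the mean, whereas KRT7, KRT8 and KRT18 were at 54.1%, 54.5% and 73.5% of their TCP level without reaching the minimum fold change. The summed level of these 6 markers was 591 and 603 FPKM on TCP and 1155 and 1099 FPKM on polymer X, and its part in the results was not tested. The summed level of 4 leukocyte markers was 0.096 and 0.160 FPKM on TCP and 0.823 and 0.962 FPKM on polymer X, with CD3E at 0 in every library. That of 3 endothelial markers was 0.009 and 0.019 FPKM on TCP and 0.489 and 0.617 FPKM on polymer X, so that all of these markers were near 0.

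Mitotic genes were lower in the polymer X spheroids in every role group. Of the 60 genes, 58 fell, against a background of 9.45% of all tested genes, and 0 rose, against 10.7% (limma). At the adjusted p alone 59 were lower, against 43.6% of all tested genes, and 1 was higher, both at the adjusted and at an unadjusted p under 0.05. The median log2 fold change was -2.11, and it lay between -2.10 and -2.07 over the 4 pairings of a polymer X library with a TCP library. Over all tested genes the median was -0.06. The 58 genes that fell kept between 7.23% and 42.7% of their mean TCP level, with a median of 20.4%. Their adjusted p ranged from 2.4e-10 to 2.3e-07 (limma). Both polymer X libraries lay below both TCP libraries for 59 genes, against 48.4% of all tested genes, and above both for 1, against 41.9%. Summed over the 60 genes, the level was 2879 and 2856 FPKM on TCP and 729 and 732 FPKM on polymer X. The remaining genes were the phosphatase CDC25B, which was higher on polymer X without reaching the minimum fold change, and the passenger scaffold INCENP, which was slightly lower.

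**Figure D1:**
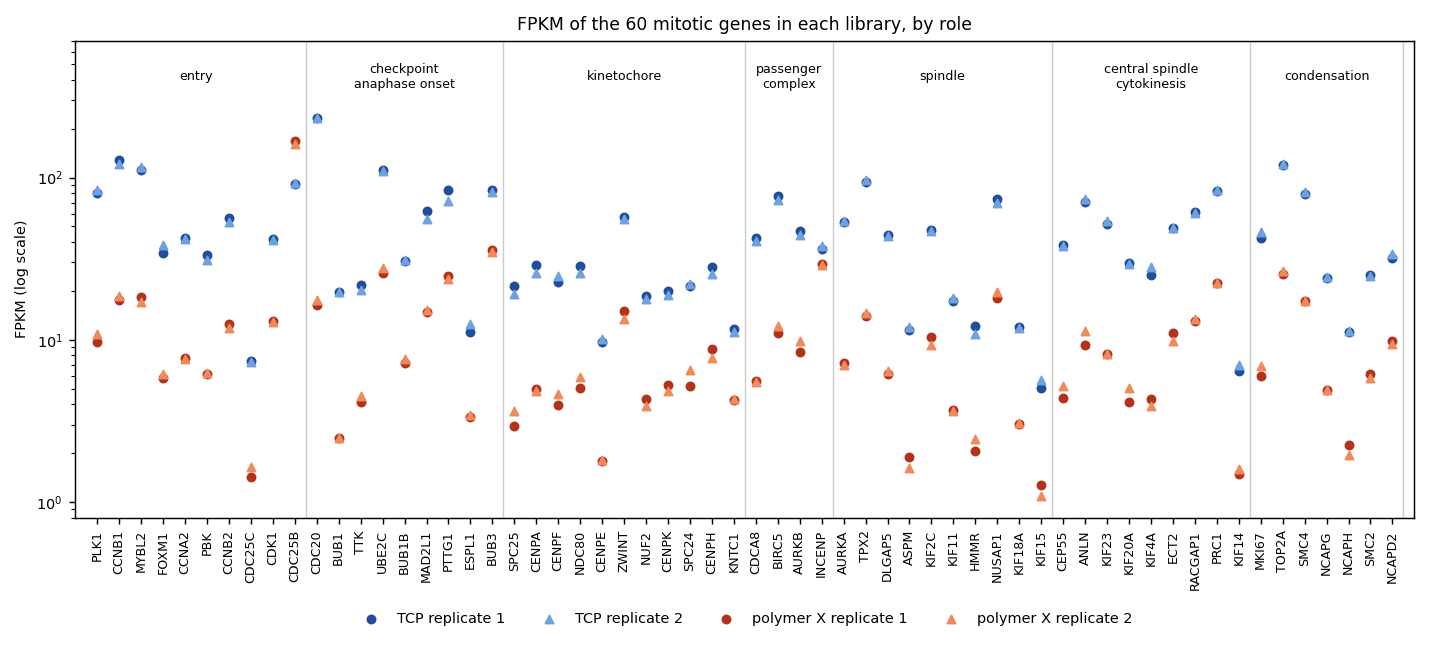
FPKM on a log axis for each of the 60 mitotic genes (horizontal axis, ordered within role by log2 fold change) in the 2 TCP libraries (blue) and the 2 polymer X libraries (red and orange). The polymer X points lie below the TCP points for 59 genes and above them for CDC25B, and replicates lie close together.

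Promoter sequences were examined because 58 of these genes fell together and because the DREAM and MuvB complexes are known to bind a short element, the cell cycle genes homology region (CHR). The RefSeq promoter windows of build GRCh38.p14, from 250 bases before to 50 bases after each gene start, had an entry for 49 of the 60 genes. The CHR letters TTTGAA, on either strand, were found in 36 of the 49 genes (73.5%). They were found in 13.3% of the tested genes with a window, and in 15.2% of all 35116 windows. Of the 53 matches in the mitotic genes, 67.9% began within 50 bases of the gene start, against 27.2% of the matches in all windows. The letters CCAAT, the box bound by the factor NF-Y, occurred in 38 of the 49 genes (77.6%) and in 43.2% of the tested genes. Both were found in 28 of the mitotic genes. The variant TTCGAA was found in 3 of the 49 genes (6.12%) and in 2.32% of the tested genes. GGCGCC, a further string searched, occurred in 17 of the 49 genes and in 37.6% of the tested genes. TTTCGCGC, an E2F-like string, occurred in 1 of the 49 and in 1.13% of the tested genes. Other E2F-like strings searched are given with the DNA replication genes. These letters were chosen with the expression values known, a gene counts where any of its windows holds the letters, and a match describes letters and not a bound site.

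The windows of 4 genes with the largest fall in their role group, PLK1, CDC20, SPC25 and CDCA8, are shown so that the elements can be compared with those of INCENP, the gene that changed least. Capitals mark TTTGAA and CCAAT on either strand, so that the reverse forms read TTCAAA and ATTGG. PLK1 is at chr16:23678639-23678938 on the plus strand, CDC20 at chr1:43358731-43359030 on the plus strand and SPC25 at chr2:168890381-168890680 on the minus strand. CDCA8 is at chr1:37692266-37692565 and INCENP at chr11:62123761-62124060, both on the plus strand, and all are positions of GRCh38.p14.
PLK1: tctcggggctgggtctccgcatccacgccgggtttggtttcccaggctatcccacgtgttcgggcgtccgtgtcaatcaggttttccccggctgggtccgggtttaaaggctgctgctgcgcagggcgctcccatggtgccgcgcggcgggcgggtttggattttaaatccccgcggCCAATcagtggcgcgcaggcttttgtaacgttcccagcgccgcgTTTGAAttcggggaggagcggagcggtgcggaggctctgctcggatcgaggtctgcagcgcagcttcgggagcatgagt
CDC20: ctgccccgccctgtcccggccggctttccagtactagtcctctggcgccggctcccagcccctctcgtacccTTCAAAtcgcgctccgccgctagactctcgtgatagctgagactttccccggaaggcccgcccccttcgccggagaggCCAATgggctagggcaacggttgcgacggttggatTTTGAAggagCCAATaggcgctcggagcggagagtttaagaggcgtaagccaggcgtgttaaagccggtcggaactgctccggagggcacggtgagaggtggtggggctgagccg
SPC25: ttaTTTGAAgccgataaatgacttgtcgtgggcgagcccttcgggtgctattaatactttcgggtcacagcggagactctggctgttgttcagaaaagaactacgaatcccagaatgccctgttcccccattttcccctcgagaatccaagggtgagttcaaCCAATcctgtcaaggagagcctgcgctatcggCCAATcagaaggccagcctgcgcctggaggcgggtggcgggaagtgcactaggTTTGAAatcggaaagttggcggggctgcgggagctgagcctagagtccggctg
CDCA8: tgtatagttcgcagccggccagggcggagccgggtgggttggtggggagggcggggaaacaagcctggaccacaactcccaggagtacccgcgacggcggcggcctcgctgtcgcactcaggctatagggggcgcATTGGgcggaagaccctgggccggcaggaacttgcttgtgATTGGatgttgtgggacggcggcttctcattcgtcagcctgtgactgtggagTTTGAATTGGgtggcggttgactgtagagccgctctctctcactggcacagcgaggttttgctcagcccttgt
INCENP: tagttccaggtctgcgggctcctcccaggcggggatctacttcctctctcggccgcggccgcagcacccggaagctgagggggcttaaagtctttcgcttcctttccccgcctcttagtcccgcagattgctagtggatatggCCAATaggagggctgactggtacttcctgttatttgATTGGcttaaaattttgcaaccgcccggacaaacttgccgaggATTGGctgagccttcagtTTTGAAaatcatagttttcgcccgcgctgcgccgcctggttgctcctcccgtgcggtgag

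Counted from the gene start, with -1 as the base before it, the CHR match began at -29 in PLK1, -65 in CDC20, -3 in SPC25, -23 in CDCA8 and -10 in INCENP. CDC20 held another match on the reverse strand at -178, and SPC25 held another at -247. In CDCA8 the CHR letters overlap a reverse CCAAT by 1 base. INCENP, whose level differed little between the groups, thus held the same letters in a similar place as the genes that fell. Among the mitotic genes, the 36 with a CHR match had a median log2 fold change of -2.09, and 35 of them fell. The 13 with a window and no match had a median of -2.16, and 12 of them fell. Since nearly all of these genes fell, this split cannot show whether the letters matter, and their part in the fall was not tested. The group without a match was defined by TTTGAA alone, and BUB1 in it held the variant TTCGAA. None of the 4 CDC25B windows held TTTGAA, and 1 of them held the variant TTCGAA.

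Of the 10 genes of mitotic entry, 9 fell, with a median of -2.27. PLK1, the polo-like kinase that acts from entry to cytokinesis, was at 80.9 and 84.3 FPKM on TCP and at 9.65 and 10.8 FPKM on polymer X. Its log2 fold change was -2.90 (SE 0.07, adjusted p = 1.5e-09 from limma). CCNB1 encodes cyclin B1, the main partner of CDK1, and was at 128 and 122 FPKM on TCP and at 17.6 and 18.6 FPKM in the spheroids (-2.72, SE 0.06). MYBL2, the factor that binds MuvB in dividing cells, was at 111 and 117 FPKM against 18.4 and 17.2 FPKM (-2.61, SE 0.06). In all 3 genes the groups were far apart relative to the spread of the replicates. FOXM1, CCNA2, PBK, CCNB2, CDC25C and CDK1 fell by 2.42 to 1.61 on the log2 scale. CDK1, the kinase that these cyclins activate, kept 31.2% of its TCP level and cyclin B1 14.5%. The ratio of CCNB1 to CDK1 in FPKM was accordingly 3.06 and 2.95 on TCP and 1.34 and 1.45 on polymer X, without overlap.

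CDC25B was the 1 gene with a higher level on polymer X. It encodes a phosphatase that removes inhibitory phosphates from CDK1 and acts early, at the centrosome. The gene is at chr20:3776386-3786768 on the plus strand of hg19, the build of the expression table. Its levels were 91.6 and 92.6 FPKM on TCP and 168 and 161 FPKM on polymer X, a mean of 92.1 ± 0.745 against 164 ± 5.40 (SD, n = 2), which is 1.78-fold. The log2 fold change of 0.83 (SE 0.06, adjusted p = 8.1e-07 from limma) lay below the minimum of 1, and under quantile normalization it was 1.18 and passed. All 10 CDC25B transcripts listed, which share exons and therefore tags, gave values between 0.82 and 0.84. CDC25C, its paralog, fell from 7.36 and 7.28 FPKM to 1.43 and 1.64 FPKM. The ratio of CDC25B to CDC25C was 12.4 and 12.7 on TCP and 118 and 98.1 on polymer X. CDC25B ranked 7th by mean FPKM among the 60 genes on TCP and 1st on polymer X.

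**Figure D2:**
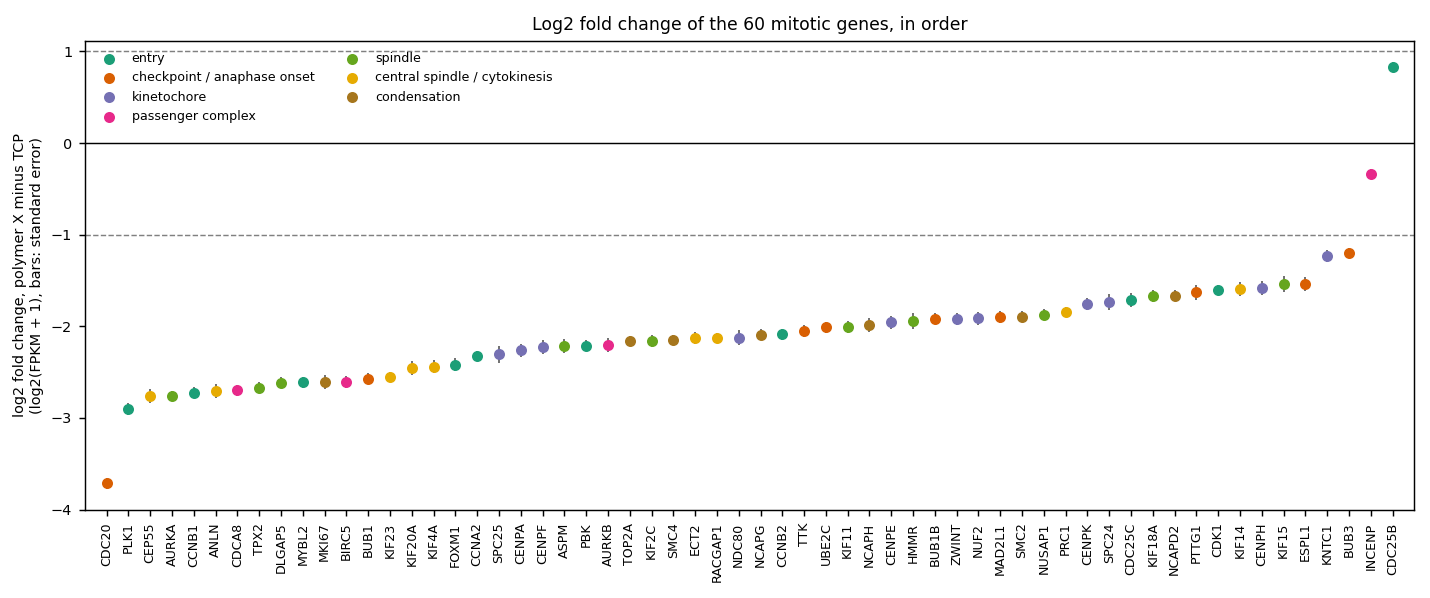
Log2 fold change (polymer X minus TCP, vertical axis) of the 60 mitotic genes in order, colored by role, with the standard error from limma and dashed lines at -1 and 1. CDC20 lies lowest at -3.71, and only INCENP at -0.34 and CDC25B at 0.83 lie above -1.

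All 9 genes of the spindle checkpoint and of anaphase onset fell, with a median of -1.92. This checkpoint holds back CDC20, the activator of the anaphase-promoting complex, until every kinetochore is attached. CDC20 was the most abundant of the 60 genes on TCP, at 234 and 235 FPKM, and was at 16.3 and 17.6 FPKM on polymer X. Its log2 fold change of -3.71 (SE 0.06, adjusted p = 2.4e-10 from limma), a 13.8-fold lower mean, was the largest among the 60 genes. BUB1, a checkpoint kinase, fell from 19.7 FPKM in both TCP libraries to 2.47 and 2.49 FPKM (log2 fold change -2.57, SE 0.06). TTK, the kinase that starts the checkpoint signal, fell from 21.8 and 20.3 FPKM to 4.14 and 4.49 FPKM (-2.05, SE 0.07). The smallest fall was that of BUB3, a protein that tethers BUB1 and BUB1B to the kinetochore, from 84.5 and 81.2 FPKM to 35.9 and 34.9 FPKM (-1.20, SE 0.05). Under quantile normalization BUB3 had a value of -0.88 and no longer reached the minimum fold change. The ratio of BUB3 to BUB1 was 4.29 and 4.13 on TCP and 14.5 and 14.0 on polymer X. UBE2C, BUB1B, MAD2L1, PTTG1 and ESPL1 fell by 2.01 to 1.54 on the log2 scale. UBE2C is a ubiquitin-conjugating enzyme of the anaphase-promoting complex, PTTG1 is securin and ESPL1 is separase, the protease that securin holds inactive. PTTG1 shares sequence with near-identical copies, so its value is uncertain; the copy PTTG2 was at 0.091 FPKM or less in every library. CDC20 exceeded UBE2C 2.10- and 2.13-fold on TCP, but reached 0.63 and 0.64 of its level on polymer X.

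Each of the 11 kinetochore genes fell, with a median of -1.92 and a range from -2.31 to -1.23. SPC25, a subunit of the NDC80 complex that grips microtubules, fell from 21.5 and 19.1 FPKM to 2.95 and 3.66 FPKM (-2.31, SE 0.09). CENPA, the histone H3 variant that marks the centromere, fell from 28.8 and 25.8 FPKM to 4.94 and 4.84 FPKM (-2.26, SE 0.07). CENPF, a large protein of the outer kinetochore, fell from 22.8 and 24.7 FPKM to 3.97 and 4.61 FPKM (-2.23, SE 0.08). These values left no overlap between the groups. KNTC1, a subunit of the complex that recruits dynein, fell least, from 11.6 and 11.1 FPKM to 4.23 and 4.31 FPKM (-1.23, SE 0.07). The 4 subunits of the NDC80 complex, which assemble in equal numbers, had mean levels between 18.2 and 27.2 FPKM on TCP and between 3.31 and 5.84 FPKM on polymer X. The ratio of NUF2 to NDC80 was 0.65 and 0.69 on TCP and 0.85 and 0.66 on polymer X and overlapped between the groups. That of SPC25 to SPC24 was 1.00 and 0.86 on TCP and 0.57 in both polymer X libraries.

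The chromosomal passenger complex was split. It holds the kinase AURKB, the scaffold INCENP, survivin (BIRC5) and borealin (CDCA8), and it corrects faulty attachments before moving to the central spindle. CDCA8 fell from 42.3 and 40.4 FPKM to 5.54 and 5.49 FPKM (-2.70, SE 0.06). BIRC5 fell from 77.3 and 73.3 FPKM to 10.9 and 12.2 FPKM (-2.60, SE 0.07). For AURKB the levels were 47.1 and 44.3 FPKM against 8.44 and 9.86 FPKM (-2.20, SE 0.08). INCENP, at chr11:61891445-61920635 on the plus strand of hg19, was at 36.2 and 38.0 FPKM on TCP and at 29.2 and 29.1 FPKM on polymer X, and kept 78.6% of its TCP level. Its log2 fold change of -0.34 (SE 0.06, adjusted p = 0.00036 from limma) did not reach the minimum, and under quantile normalization it was -0.07 with an adjusted p of 0.26. INCENP thus had the lowest mean level of the 4 subunits on TCP and the highest on polymer X. The ratio of INCENP to CDCA8 was 0.85 and 0.94 on TCP and 5.28 and 5.29 on polymer X, a 5.89-fold difference in the mean. An exact permutation test of 2 libraries against 2, two-sided, gave p = 0.333 for this ratio and for each of the other ratios that did not overlap, which is the smallest p this design allows. In all, 16 ratios were computed, and no adjustment can bring them under 0.05.

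**Figure D3:**
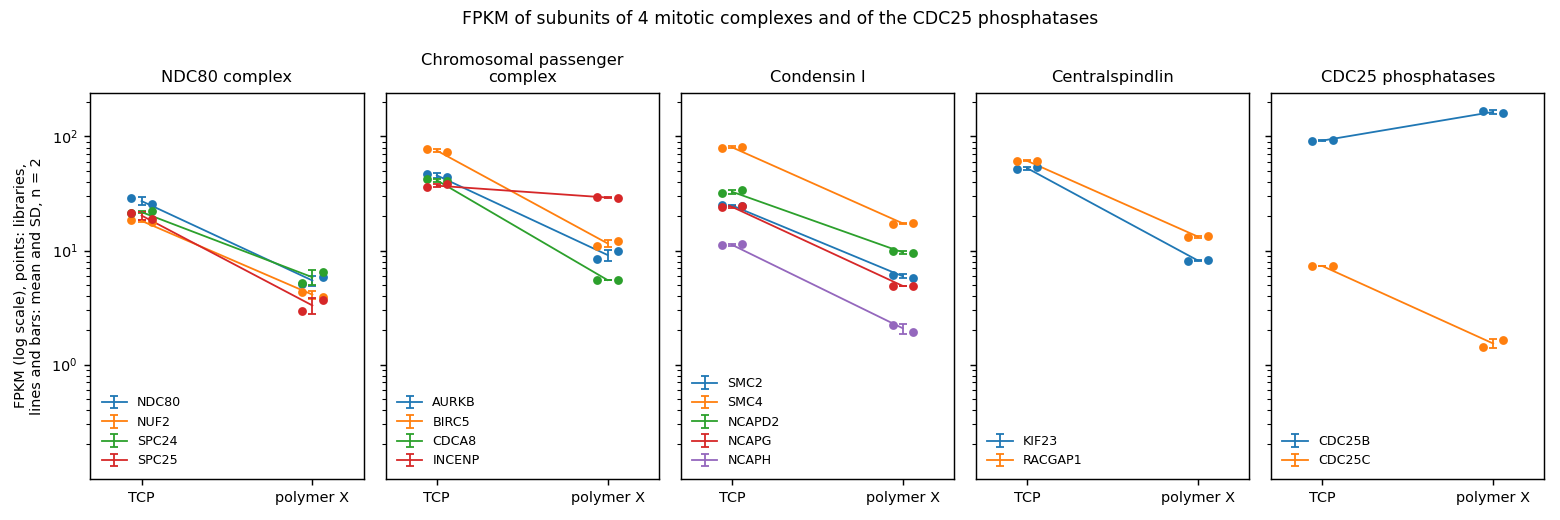
FPKM on a log axis of the subunits of 4 mitotic complexes and of the CDC25 phosphatases on TCP and polymer X, with points for libraries and lines and bars for mean and SD (n = 2). Most lines fall in parallel, whereas INCENP stays nearly level, from 37.1 to 29.2 FPKM, and CDC25B goes up, from 92.1 to 164 FPKM.

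Spindle genes fell in 10 of 10 cases, with a median of -2.08. AURKA, the centrosomal kinase, fell from 53.1 and 54.3 FPKM to 7.14 and 7.01 FPKM (-2.76, SE 0.06). TPX2, which activates AURKA and nucleates microtubules around chromosomes, fell from 94.7 and 97.4 FPKM to 14.0 and 14.5 FPKM (-2.67, SE 0.05). DLGAP5, a factor that stabilizes kinetochore fibers, fell from 44.0 and 43.4 FPKM to 6.17 and 6.42 FPKM (-2.62, SE 0.06). TPX2 and AURKA therefore kept nearly the same proportion, with a ratio of 1.78 and 1.79 on TCP and of 1.96 and 2.07 on polymer X. At the other end, KIF15, a motor that helps to hold the spindle poles apart, was the least abundant of the 60 genes in both groups. It fell from 5.03 and 5.67 FPKM to 1.28 and 1.09 FPKM (-1.54, SE 0.09), which at these levels understates a change to 22.1% of the TCP mean. KIF11, the main motor that separates the poles, kept 20.6%, and the motors KIF2C and KIF18A, which shorten or cap microtubule ends, kept 20.8% and 25.6%.

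The central spindle and cytokinesis genes also fell in 9 of 9 cases, with a median of -2.44. CEP55, which gathers the abscission machinery at the midbody, fell from 38.4 and 38.1 FPKM to 4.40 and 5.20 FPKM (-2.76, SE 0.07). ANLN, anillin, the scaffold of the contractile ring, fell from 71.1 and 73.8 FPKM to 9.33 and 11.3 FPKM (-2.71, SE 0.08). KIF23, the motor subunit of centralspindlin, fell from 51.7 and 53.8 FPKM to 8.17 and 8.19 FPKM (-2.55, SE 0.06). All of these polymer X values were well below those on TCP. RACGAP1, the other subunit of centralspindlin, kept 21.7% of its TCP level against 15.5% for KIF23, and their ratio went from 0.84 and 0.89 on TCP to 0.62 and 0.61 on polymer X. KIF14, a motor of the midbody, fell least on this scale, from 6.41 and 6.97 FPKM to 1.49 and 1.59 FPKM (-1.60, SE 0.08). By percentage the smallest loss in this group was that of PRC1, the bundler of the central spindle, which kept 27.0%.

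Condensation genes were lower in 7 of 7 cases, with a median of -2.09. MKI67, the Ki-67 protein that coats mitotic chromosomes, fell from 42.6 and 45.9 FPKM to 5.97 and 6.91 FPKM (-2.61, SE 0.07). TOP2A, the topoisomerase that untangles sister chromatids, fell from 119 and 122 FPKM to 25.6 and 26.6 FPKM (-2.17, SE 0.05). SMC4, a condensin ATPase, fell from 79.3 and 81.6 FPKM to 17.3 and 17.4 FPKM (-2.15, SE 0.05). NCAPD2 fell least, from 31.9 and 33.7 FPKM to 9.84 and 9.44 FPKM (-1.67, SE 0.06). The 5 subunits of condensin I kept their order of mean FPKM, from SMC4 through NCAPD2, SMC2 and NCAPG to NCAPH, in both groups. SMC4 exceeded SMC2 3.16- and 3.31-fold on TCP and 2.82- and 3.01-fold on polymer X.

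Over the 58 genes that fell, the order of levels was largely preserved. Spearman's rho between the mean level on TCP and that on polymer X was 0.94 across these genes, which share libraries and are not independent replicates. On TCP 21 of the 60 genes had a mean above 50 FPKM, and on polymer X 1 had, namely CDC25B. A log2 fold change of -2 or less was reached by 35 genes, against 1.25% of all tested genes. Of the 58 genes, 37 had more than 1 transcript in the table, and every transcript of theirs had a log2 fold change of -1.05 or less. The widest range between transcripts of a gene was 0.20, for SPC24. Transcripts of a gene share exons and therefore tags, so their agreement is not independent support. Tags were counted without regard to strand, and 5 members, CCNA2, PLK1, KIF20A, ANLN and NCAPG, overlap a gene on the opposite strand. Reads of such a pair cannot be told apart where the genes overlap. Of the 5 partners, 4 were lower on polymer X, as their mitotic gene was. EXOSC9, beside CCNA2, fell from 22.5 and 23.2 FPKM to 8.86 and 7.58 FPKM (-1.37). CDC23, beside KIF20A, and LCORL, beside NCAPG, had log2 fold changes of -0.98 and -0.62, which did not reach the minimum. ERN2, beside PLK1, was not tested and was at 1.00 and 0.88 FPKM on TCP and 0.12 FPKM in both polymer X libraries. KIAA0895, beside ANLN, had a log2 fold change of 0.33. The part of these overlaps in the values of the 5 mitotic genes was not tested. BUB1B shares its exons with the readthrough transcript BUB1B-PAK6, which was at 1.15 FPKM or less.

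Other genes of mitosis, in lists that hold none of the 60, fell to different extents. Of 28 other kinetochore and centromere genes, 20 fell (71.4%, against 9.45% of all tested genes), with a median of -1.51. In this list 1 gene rose (3.57%, against 10.7% of all tested genes). SPDL1, spindly, which links dynein to the kinetochore, fell most (-2.90, from 63.4 ± 0.709 to 7.62 ± 0.540 FPKM, SD, n = 2), followed by SKA3 at -2.41. MAD1L1, the partner of MAD2L1 in the checkpoint, was the 1 that rose, from 5.06 and 4.50 FPKM to 11.8 and 12.8 FPKM (1.20, SE 0.08). Its value is that of 1 transcript of 1296 bases, taken from 6 for its highest mean. The other MAD1L1 transcripts are not given here. Of 19 tested spindle motors and microtubule-associated proteins, 13 fell (68.4%, median -1.73), led by FAM83D at -2.75 and GTSE1 at -2.44. Among 12 regulators of CDK1 and partners of the anaphase-promoting complex, 8 fell (66.7%, median -1.45). They were led by the phosphatase CDC25A at -2.16 and the ubiquitin-conjugating enzyme UBE2S at -2.02. The share that fell was smaller in the next lists. For cohesin and condensin II it was 9 of 19 (47.4%, median -0.84), with CDCA5 at -2.24 and ESCO2 at -1.90. For centrosome and augmin it was 9 of 26 (34.6%, median -0.80), with HAUS8 at -1.85 and NEK2 at -1.83. Both shares lie above the 9.45% of all tested genes that fell. In the centrosome and augmin list 1 gene rose (3.85%, against 10.7% of all tested genes), TUBGCP6 at 1.02. MAD1L1 and TUBGCP6 are thus described as single genes and not as a result about their lists. Of the 14 core subunits of the anaphase-promoting complex 2 fell (median -0.61), ANAPC15 at -1.50 and ANAPC7 at -1.24. Of 18 abscission and septin genes 2 fell (median -0.28), SEPT11 at -1.34 and the kinase CIT at -1.32. These shares, 14.3% and 11.1%, lie near the 9.45% of all tested genes that fell and are no result about either list. These medians are descriptions, and differences between lists were not tested.

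**Figure D4:**
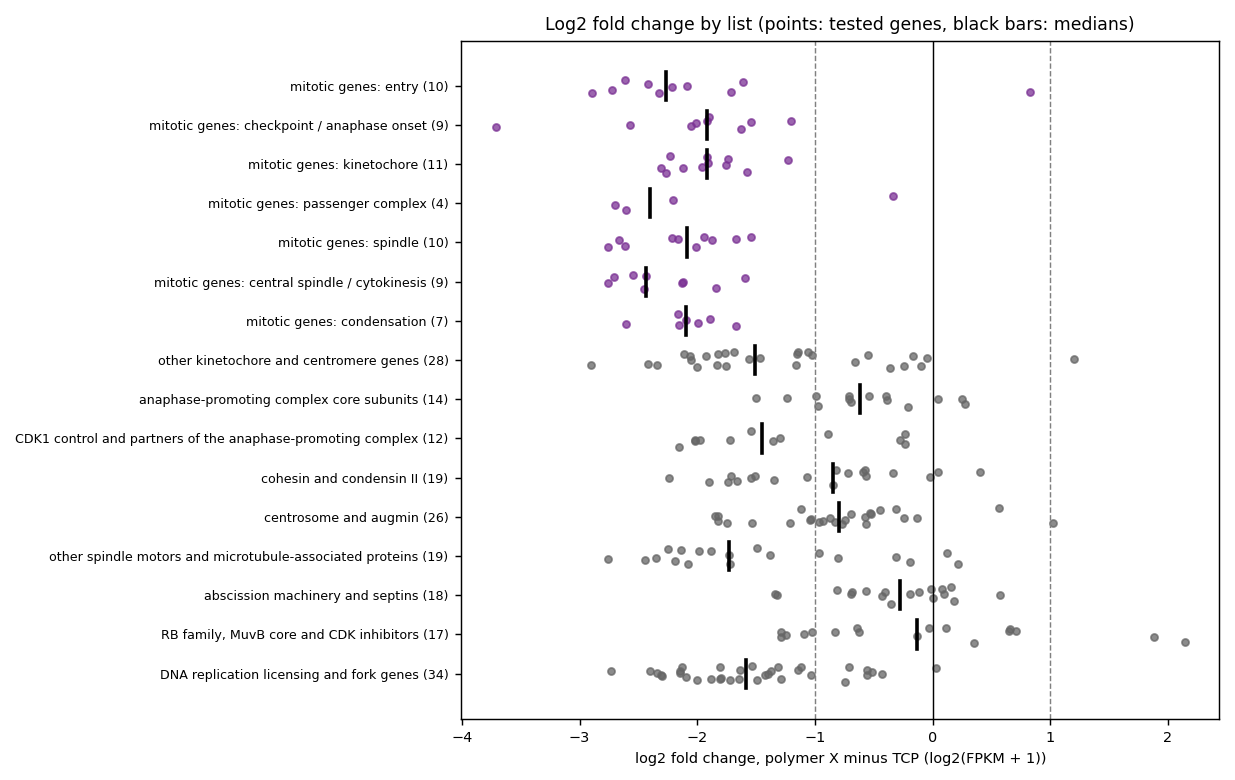
Log2 fold change (horizontal axis, polymer X minus TCP) of each tested gene in the 7 role groups of the 60 mitotic genes (purple) and in 9 other lists (gray), with black bars at the medians and dashed lines at -1 and 1. The medians run from -2.44 to -1.92 in the role groups and from -1.73 to -0.13 in the other lists.

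The RB family, the MuvB core and the CDK inhibitors are known to take part in restraining this wave, and MuvB also in switching it on. Of 17 tested genes, 5 fell (29.4%, against 9.45% of all tested genes) and 2 rose, with a median of -0.13. The share that rose, 11.8%, lies near the 10.7% of all tested genes, so the 2 are described as single genes and not as a result about the list. CDKN1C, the inhibitor p57, rose from 3.21 and 4.58 FPKM to 20.5 and 20.3 FPKM (2.14, SE 0.11, adjusted p = 1.7e-07 from limma). CDKN1A, the inhibitor p21, rose from 3.00 and 2.33 FPKM to 12.4 FPKM in both polymer X libraries (1.88, SE 0.09, adjusted p = 9.1e-08 from limma). Both inhibitors were higher in each polymer X library than in each TCP library, which also held for 41.9% of all tested genes. RBL1, which encodes p107, fell by 1.29 on the log2 scale, as did LIN52 of the MuvB core. The others that fell were TFDP1 at -1.24, LIN9 at -1.09 and E2F4 at -1.02. RBL2, which encodes p130, the RB family protein of the DREAM complex in resting cells, had a log2 fold change of 0.71, below the minimum. That of RB1 was -0.83, which did not reach the minimum either.

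DNA replication genes, which belong to the earlier wave, fell in 27 of 34 cases (79.4%, against 9.45% of all tested genes) with a median of -1.59. CLSPN, a mediator of the replication checkpoint, had a log2 fold change of -2.73, and the licensing factor CDC6 of -2.40. Their promoters differed in letters from those of the mitotic genes. The CHR letters occurred in 0 of the 31 replication genes with a window, against 36 of 49 mitotic genes. The E2F-like letters TTTGGCGC occurred in 6 of the 31 (19.4%), in 2 of the 49 (4.08%) and in 1.32% of the tested genes with a window. The E2F-like letters TTTCCCGC occurred in 10 of the 31 (32.3%) and in 1 of the 49 (2.04%). Of the tested genes with a window, 3.4% held them. With 1 match in the 49, no difference between mitotic and tested genes can be read for TTTCCCGC. For the E2F-like TTTCGCGC, named above, the counts were 4 of the 31 (12.9%) and 1 of the 49 (2.04%), against 1.13% of the tested genes. CCAAT occurred in 20 of the 31 (64.5%). Outside the 60 genes, the CHR letters were most frequent in the lists of CDK1 regulators, with 7 of 10, and of other spindle motors, with 10 of 18. Mitotic and replication genes both fell and differed in these letters, and the part of the letters in the fall was not tested.

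**Figure D5:**
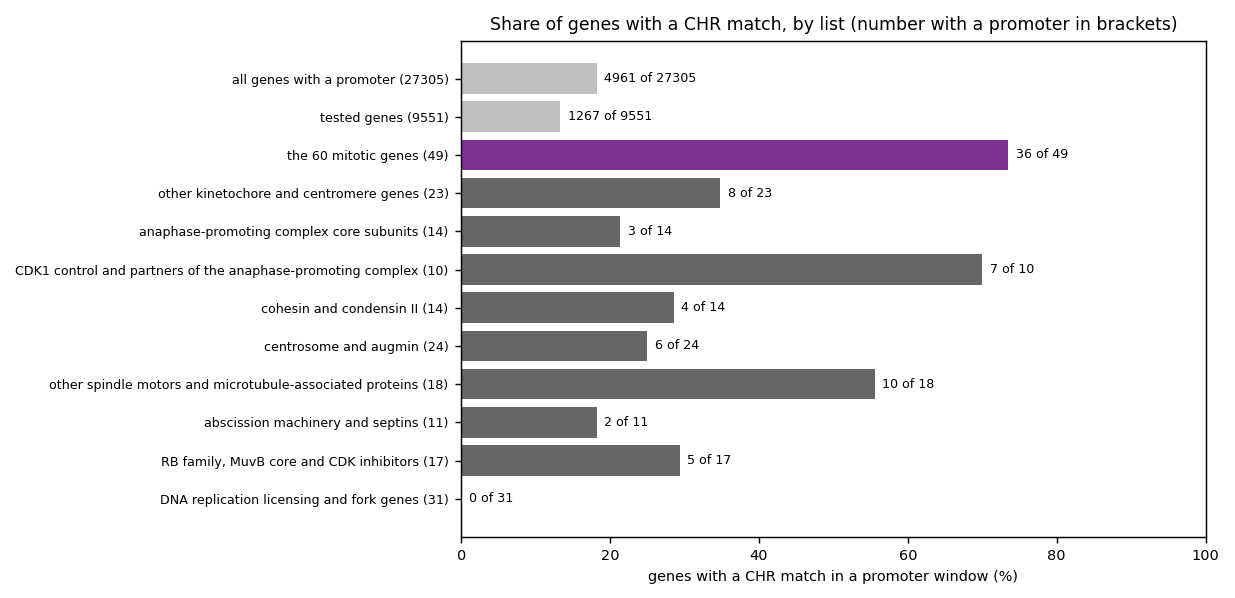
Share of genes with a CHR match in a promoter window (horizontal axis, percent) for all genes with a window, the tested genes, the 60 mitotic genes (purple) and the other lists, with counts beside each bar. The share is 73.5% in the mitotic genes, 13.3% in the tested genes and 0 of 31 in the DNA replication genes.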

How the data were processed

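RNA-seq libraries of SKOV3 cells on TCP (n = 2) and on polymer X (n = 2) were compared. The authors deposited FPKM values for 50078 RefSeq transcripts of the hg19 build, 1 column per library, made with HOMER from tags on exons of both strands. The submitters' processing notes also name STAR 2.4.0 and DESeq. A symbol with several transcripts was represented by the 1 with the highest mean. Symbols that reached an FPKM of 1 in 2 or more libraries entered the test. Their log2(FPKM + 1) values were fitted with limma 3.58.1 (R 4.3.3), with a trend of variance on level, no replicate block, and Benjamini-Hochberg adjustment over 11964 genes. For genes with low FPKM the pseudocount shrinks the fold change. Tags per library were found from the steps between low values. In transcripts of 1000 to 3000 bases, 100% of these values came within 0.1 of a whole tag. Tag numbers cover counting error only.

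The 60 genes, their role groups and the other lists were chosen with earlier results of these data known. Values by library are given for the 3 genes of each role group with the largest change, the 1 with the smallest, and each gene not called, and in the other lists the 2 called genes that changed most in either direction are named. Other genes were named after their values were seen. Alternatives were another pseudocount, filter, normalization, transcript choice and fold change minimum, a replicate block and each library left out. In simulated data with a log2 fold change of 1.5 in 200 of 11964 genes, 188 were called in the right direction and 0 unchanged genes were called. The spread between simulated replicates was set at a small value and not estimated from these libraries. Far fewer genes changed in the simulation than were called here, so it checks the procedure and not the calls. Promoter windows were those of RefSeq on GRCh38.p14, and gene names came from the table. Plots were drawn with matplotlib 3.10.9.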

Additional observations from a re-analysis of the deposited data

How the results depend on the processing

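Of the 60 mitotic genes, 58 fell under the pseudocount of 0.1, no filter, median scaling, the sum of transcripts, no variance trend and each library left out. It was 57 under quantile normalization, which lost BUB3 (-0.88), 55 of the 57 tested when the filter was a mean of 5 FPKM, 59 without a fold change minimum and 35 when that minimum was 2 (log2). At that minimum 4 checkpoint, 4 kinetochore, 6 spindle and 4 condensation genes fell. CDC25B rose (1 gene) under quantile normalization and without a minimum. The median of the 60 genes was -2.26 with the pseudocount of 0.1, -2.13 with the 5 FPKM filter, -2.01 under quantile normalization, -2.07 under median scaling and -2.18 with transcripts summed, and between -2.13 and -2.08 with each library left out, where the lone library of a group is assumed to vary like the others. Over all genes, 5212 fell and 4477 rose without a minimum and 150 and 281 at the higher one, and 702 rose with the 5 FPKM filter. The count that fell in the anaphase-promoting complex list was 4 with the pseudocount of 0.1, and that in the RB family list was 3 with the 5 FPKM filter and under quantile normalization. Fewer genes are tested with the 5 FPKM filter, and the cause of the other shifts was not tested. With the replicate block, 58 mitotic genes fell, 0 rose, and the median was -2.11. Same-numbered libraries deviated with a correlation of 0.093 across genes. This rests on a single difference per group, so it cannot show whether they share more than a number. Of 334 values of 28 named mitotic genes over the alternatives other than the fold change minimum, 332 kept their direction and call and 0 changed sign. Changing that minimum changes the calls of single genes by construction. Depth does not limit these genes, since none had under 111 tags.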
